A study of Mus musculus with 6 samples.

Results

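The mouse kidney arrays described here were searched for 5 genes of 2 tandem gene clusters: Serpina10, Serpina1f and Serpina1c of the serpin cluster on chromosome 12, and Akr1c19 and Akr1c21 of the aldo-keto reductase cluster on chromosome 13. Members were taken as all probe sets whose annotation gave 1 of these symbols alone, which found 5 probe sets, 1 per gene, among 18193 genes with a probe set of their own. The genes were selected on their variation between single arrays in these same log2 values, so their levels, ranges and mutual correlations are given as a description, with no test. Kidney RNA came from 6 male mice aged 10 weeks, with 1 Affymetrix array per animal. The 3 arrays labelled TG came from animals heterozygous for an allele that expresses the intracellular domain of megalin, and the 3 arrays labelled WT came from wild type littermates. Only the genotype label of TG 1 calls the domain soluble. The labels do not name the promoter or locus that drives the domain, nor the strain of the mice. The animals are separate, and arrays are called TG 1 to TG 3 and WT 1 to WT 3 after their titles.

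Many serpins of clade A are secreted inhibitors of serine proteases. These trap the protease by a conformational change in which the protease cleaves an exposed loop of the inhibitor. Mouse has several near-identical copies of the gene for alpha-1 antitrypsin, the plasma inhibitor of neutrophil elastase, which is made mainly in liver. The Akr1c enzymes are cytosolic NAD(P)H-dependent reductases that interconvert ketones and alcohols on steroids, prostaglandins and foreign compounds. Akr1c21 encodes a 3(17)alpha-hydroxysteroid dehydrogenase that is abundant in mouse kidney.

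Promoter windows from RefSeq (build GRCm38.p6), running from 250 bases before to 50 bases after the gene's start, were available for 4 of the 5 genes. They are printed because the genes of each cluster moved together or in opposite directions across the arrays, and each reads 5′ to 3′ on the gene's own strand. Capitals mark exact matches, on either strand, to the short motifs listed after them. The window of Serpina1f lies at chr12:103695480-103695779, minus strand, and that of Serpina1c at chr12:103904901-103905200, minus strand. The window of Akr1c19 lies at chr13:4233490-4233789, plus strand, and that of Akr1c21 at chr13:4573825-4574124, plus strand.
Serpina1f: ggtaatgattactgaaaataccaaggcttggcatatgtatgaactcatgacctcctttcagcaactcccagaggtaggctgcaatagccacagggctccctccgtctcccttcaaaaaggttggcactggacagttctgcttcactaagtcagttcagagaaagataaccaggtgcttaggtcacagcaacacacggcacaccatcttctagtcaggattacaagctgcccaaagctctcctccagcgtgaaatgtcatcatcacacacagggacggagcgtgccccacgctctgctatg
Serpina1c: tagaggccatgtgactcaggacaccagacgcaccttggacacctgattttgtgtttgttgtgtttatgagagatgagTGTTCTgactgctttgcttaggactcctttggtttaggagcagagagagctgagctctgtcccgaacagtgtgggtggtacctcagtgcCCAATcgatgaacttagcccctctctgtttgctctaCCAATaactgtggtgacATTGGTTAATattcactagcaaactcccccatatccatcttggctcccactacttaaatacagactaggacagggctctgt
Akr1c19: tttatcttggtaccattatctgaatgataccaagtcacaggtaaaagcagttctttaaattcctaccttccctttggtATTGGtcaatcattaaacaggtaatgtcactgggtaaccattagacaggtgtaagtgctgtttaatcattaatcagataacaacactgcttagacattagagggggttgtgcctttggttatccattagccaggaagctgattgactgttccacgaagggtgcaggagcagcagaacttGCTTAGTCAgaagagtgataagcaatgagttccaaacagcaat
Akr1c21: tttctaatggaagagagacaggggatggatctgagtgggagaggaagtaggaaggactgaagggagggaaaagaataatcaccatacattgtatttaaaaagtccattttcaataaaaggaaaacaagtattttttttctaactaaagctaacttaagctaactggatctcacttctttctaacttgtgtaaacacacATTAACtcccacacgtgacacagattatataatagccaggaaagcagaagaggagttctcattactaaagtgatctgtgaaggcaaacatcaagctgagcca

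The motifs searched on both strands were the TATA box TATAAA, the CCAAT box CCAAT, the HNF1 core GTTAAT, the androgen and glucocorticoid receptor core AGAACA, the antioxidant response core TGACNNNGC and the HNF4 direct repeat CAAAGTCCA. None of them contains another. The Serpina1c window held 3 CCAAT boxes, at positions -84, -48 and -31 from the start, and an HNF1 core at -27 that overlapped the last of these. It also held the receptor core AGAACA at -173. The Akr1c21 window held an HNF1 core at -52, and the Akr1c19 window a CCAAT box at -172 and an antioxidant response core at 8. No motif was found in the Serpina1f window. Among all 32851 promoter windows of the table, 37.4% held a CCAAT box, 7.10% an HNF1 core, 19.0% the receptor core, 12.4% the antioxidant response core and 13.6% the TATA box. The HNF4 repeat was in 0.475% of windows. These matches describe letters in a window and not binding.

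The closest promoter matches of any member were those between Serpina1c and the other alpha-1 antitrypsin copies. The Serpina1c window was 91.4% identical to that of Serpina1b, 91.2% to that of Serpina1a and 85.2% to that of Serpina1d in a global alignment. It was 67.5% identical to that of Serpina1e and 51.6% to that of Serpina1f. Akr1c19 was 59.8% identical to Akr1c13 and 58.7% to Akr1c12, but 49.6% to Akr1c21. Values near 50% were also found between Serpina1f and the distant Serpina3 genes (47.5% to 51.7%). Serpina1f and Serpina1c, like Akr1c19 and Akr1c21, lay in that lower range.

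Serpina10 encodes the protein Z-dependent protease inhibitor, which blocks coagulation factors Xa and XIa. Its probe set 1424758_s_at read 8.39, 6.49 and 6.62 (log2) on TG 1, TG 2 and TG 3, and 8.10, 8.46 and 6.78 on WT 1, WT 2 and WT 3. TG 1, WT 1 and WT 2 were high and TG 2, TG 3 and WT 3 were low, so each genotype held both kinds of value and the groups overlapped. The gap between the lowest of the high arrays and the highest of the low ones was 1.32, against a spread of 0.36 among the high arrays and 0.30 among the low ones. From the lowest to the highest array the range was 1.98, or 3.94-fold.

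Serpina1f and Serpina1c, both of the alpha-1 antitrypsin gene group, showed the opposite order. Serpina1f (1453085_at) read 10.79, 11.96 and 11.34 on TG 1, TG 2 and TG 3, and 10.91, 10.85 and 11.66 on WT 1, WT 2 and WT 3. Serpina1c (1448680_at) read 7.89, 9.05 and 8.41 on the TG arrays and 7.91, 7.56 and 9.07 on the WT arrays. For both genes TG 2 and WT 3 were highest, TG 3 came next, and TG 1, WT 1 and WT 2 were the lowest. The ranges were 1.17 for Serpina1f (2.26-fold) and 1.51 for Serpina1c (2.86-fold). The largest gap between neighbouring arrays was 0.43 for Serpina1f, between WT 1 and TG 3, and 0.64 for Serpina1c, between TG 3 and TG 2.

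Both Akr1c genes followed the order of Serpina10. Akr1c19, a reductase of the cluster, read 8.08, 7.45 and 7.19 on TG 1, TG 2 and TG 3 (1455454_at), and 7.98, 8.40 and 7.25 on WT 1, WT 2 and WT 3. Akr1c21, the 3(17)alpha-hydroxysteroid dehydrogenase, read 14.01, 13.42 and 13.45 on the TG arrays (1451030_at) and 13.97, 14.24 and 13.13 on the WT arrays. WT 2 was highest, followed by TG 1 and WT 1, for Serpina10, Akr1c19 and Akr1c21 alike, and the order of the lower arrays differed between these genes. The ranges were 1.22 for Akr1c19 (2.32-fold) and 1.11 for Akr1c21 (2.16-fold), and the gap in the middle was 0.52 for each.

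**Figure D1:**
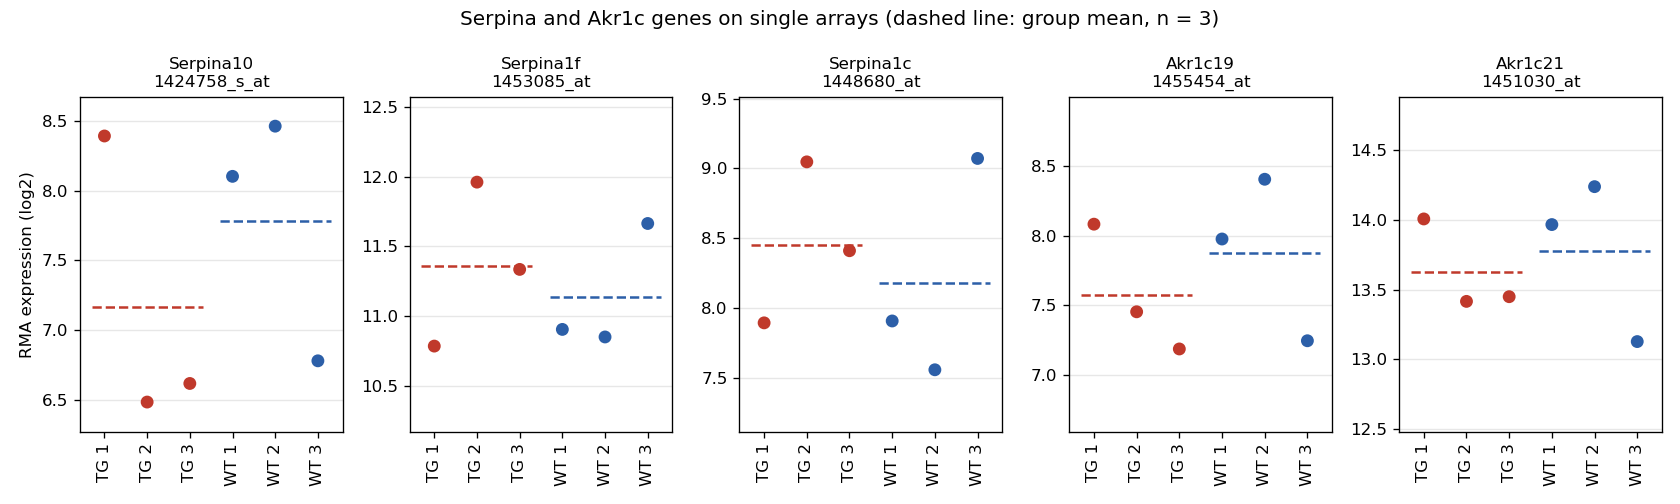
Log2 RMA expression (vertical axis) of the 5 genes on each of the 6 arrays (horizontal axis), 1 point per animal, TG in red and WT in blue, with a dashed line at each group's mean. Each panel spans the same height in log2 units around its own middle. TG 1, WT 1 and WT 2 lie high for Serpina10, Akr1c19 and Akr1c21 and low for Serpina1f and Serpina1c.

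The 5 probe sets were among the most variable of the table, which is what they were picked for. By the SD over 6 arrays they held rank 47 (Serpina10), 131 (Serpina1c), 250 (Akr1c19), 264 (Serpina1f) and 364 (Akr1c21) of 45037 probe sets. The median range over all probe sets was 0.28, and 541 of them (1.20%) had a range of 1 or more.

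The values did not follow the TG and WT labels. The groups overlapped for all 5 genes. Overlap was also the usual outcome over the table, where the groups did not overlap for only 10.5% of probe sets. The mean of Serpina10 was 7.16 ± 1.06 (SD, n = 3) in TG and 7.78 ± 0.89 in WT kidneys, a difference of -0.62 ± 0.56 (SE), while the TG arrays alone spanned 1.91 and the WT arrays alone 1.68. The difference, TG minus WT, was 0.22 ± 0.30 (SE) for Serpina1f and 0.27 ± 0.40 for Serpina1c. It was -0.30 ± 0.30 for Akr1c19 and -0.15 ± 0.27 for Akr1c21. For each gene the span inside either genotype was wider than the difference between the means. The spans in TG and WT were 1.17 and 0.81 for Serpina1f and 1.15 and 1.51 for Serpina1c. They were 0.89 and 1.16 for Akr1c19, and 0.59 and 1.11 for Akr1c21. Wide spans follow in part from the choice of the genes, which were picked for variation between single arrays.

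In a limma fit over 45037 probe sets, 0 (0%) passed a Benjamini-Hochberg adjusted p of 0.05, and 2641 (5.86%) had an unadjusted p under 0.05, none of them a member. The interval of the difference of Serpina10 ran from -1.89 to 0.66, which includes differences of either sign. Those of the others ran from -0.47 to 0.91 (Serpina1f), -0.64 to 1.18 (Serpina1c), -0.99 to 0.39 (Akr1c19) and -0.78 to 0.47 (Akr1c21). Leaving out 1 array moved them widely: the difference of Serpina10 was -1.23 without TG 1 and -0.28 without WT 2. The sign turned for Serpina1f without TG 2 (-0.080), for Serpina1c without TG 2 (-0.027) or WT 2 (-0.039), and for Akr1c21 without WT 2 (0.077). Akr1c19 differed by -0.037 without WT 2 and by -0.62 without WT 3.

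Within the Serpina cluster, Serpina1f and Serpina1c were correlated over the 6 arrays with a Pearson r of 0.96 (Spearman rho 0.89). Serpina10 ran against both, with r of -0.92 (rho -0.89) against Serpina1f and -0.91 (rho -0.83) against Serpina1c. Within the Akr1c cluster, Akr1c19 and Akr1c21 had an r of 0.96 (rho 0.83). All of these points share the same 6 RNA samples and their normalization. No p is given, since the genes were chosen with these values known.

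Correlations between the clusters, which lie on different chromosomes, were also high. Serpina10 had r of 0.95 with Akr1c19 and 0.93 with Akr1c21. Serpina1c had r of -0.95 with Akr1c21 and -0.87 with Akr1c19, and Serpina1f had -0.87 and -0.79. The order of the arrays for Serpina1c was the exact reverse of that for Akr1c21 (rho -1). Over all 10 pairs the size of r lay between 0.79 and 0.96, with 4 positive and 6 negative pairs.

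Removing the genotype means from the values changed little. The r of Serpina10 with Akr1c21 was 0.94 after each group was centred, that of Akr1c19 with Akr1c21 was 0.97, that of Serpina1f with Serpina1c was 0.95, and that of Serpina10 with Serpina1f stayed at -0.92. Without the 2 arrays farthest from the median of the first gene, r was 1.00 for Serpina10 with Akr1c19, -0.99 for Serpina1c with Akr1c21 and 0.87 for Serpina1f with Serpina1c. Without WT 3, the array that stood apart for other genes, r was 0.98 for Serpina10 with Akr1c21, 0.97 for Akr1c19 with Akr1c21 and 0.96 for Serpina1f with Serpina1c. No pair changed sign when any 1 array was left out.

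**Figure D2:**
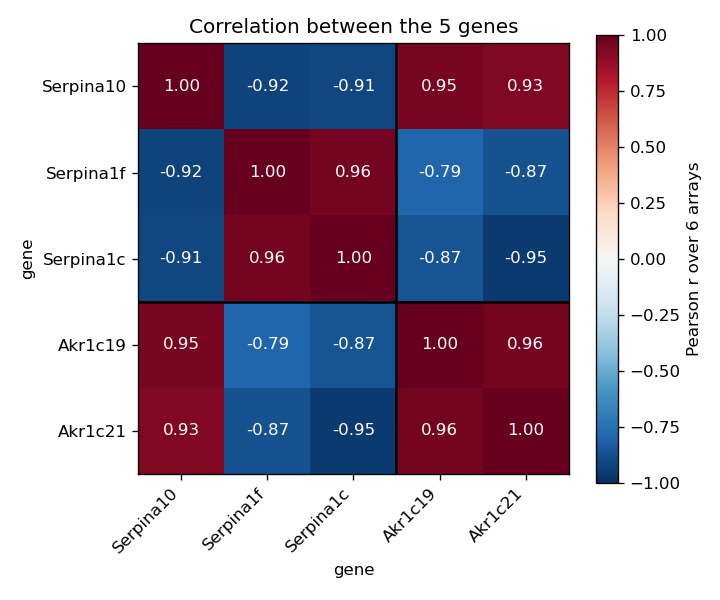
Pearson r over the 6 arrays for each pair of the 5 genes, given as colour and number, with black lines between the Serpina and the Akr1c cluster. Serpina10 stands with Akr1c19 and Akr1c21 (0.95 and 0.93) and opposite to Serpina1f and Serpina1c (-0.92 and -0.91).

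The other genes of the Serpina cluster were measured by probe sets of 10 genes beyond the members, out of 25 genes on the list. None passed the limma test, with 4 higher and 6 lower in TG and adjusted p from 0.846 to 0.996. Over the 13 measured genes of the list, members included, the median difference was -0.015, beside -0.012 over all 18193 genes. It ranged from -0.059 to -0.012 when 1 array was left out, the lowest without TG 1, and was 0.19 among the 5 brighter genes. Serpina1b, an alpha-1 antitrypsin copy between Serpina1f and Serpina1c in gene order, read 9.25, 10.16 and 9.57 on TG 1, TG 2 and TG 3 and 8.94, 9.54 and 9.91 on WT 1, WT 2 and WT 3 (1418282_x_at). TG 2 and WT 3 were again the highest, but WT 2 lay close to TG 3, and r was 0.88 with Serpina1f and 0.79 with Serpina1c. The second probe set of Serpina1b, 1451513_x_at, had r of 0.79 and 0.67 with them.

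A pair of further probe sets match several alpha-1 antitrypsin copies at once and name no single gene. The first, 1420553_x_at, read 10.35, 11.16 and 10.89 on the TG arrays and 10.12, 10.45 and 10.88 on the WT arrays, with r of 0.92 with Serpina1f and -0.90 with Serpina10. The dimmer 1449321_x_at read 5.01, 5.67 and 5.31 on the TG arrays and 5.03, 5.13 and 5.54 on the WT arrays. Its r was 0.99 with Serpina1f and 0.93 with Serpina1c, which is among the copies it names. TG 2, TG 3 and WT 3 were the highest on both probe sets. Since the copies are nearly identical in sequence, probes for one can bind transcripts of another, and the values of Serpina1b and Serpina1c are uncertain to that extent.

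The remaining Serpina genes varied less than the members. Serpina6, the corticosteroid-binding globulin between Serpina10 and Serpina1f, read 4.49 to 5.02. Serpina11 read 6.69 to 6.85 and Serpina5, the protein C inhibitor, 4.10 to 4.26. Serpina9, read at 4.88 to 5.18, was the 1 gene of the 13 whose groups did not overlap (10.5% of all probe sets), with a difference of -0.16 ± 0.07 (SE) and a limma adjusted p of 0.85. Serpina12, known as vaspin, read 5.19 to 5.49 on 1421092_at and 4.56 to 4.84 on 1421091_at. On the latter the order followed Serpina10 (r = 0.90) within a range of 0.28, and on the former it did not (r = -0.06). Among the antichymotrypsin-like genes Serpina3a, Serpina3i and Serpina3n the differences were -0.20, -0.19 and -0.17, with overlapping groups, and the 3 probe sets of the pseudogene Serpina4-ps1 differed by 0.07 to 0.14.

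In the Akr1c list, 8 genes beyond the members were measured, 3 higher and 5 lower in TG, and none passed (limma adjusted p from 0.840 to 0.996). The median over the 10 measured genes was -0.10, beside -0.012 over all genes. It was -0.051 without WT 1, -0.024 without WT 2 and -0.032 without TG 3. Akr1c14, a 3-alpha-hydroxysteroid dehydrogenase, read 12.50, 12.92 and 13.12 on TG 1, TG 2 and TG 3 and 12.60, 12.60 and 13.11 on WT 1, WT 2 and WT 3. TG 2, TG 3 and WT 3 were its highest arrays, opposite to Akr1c19 (r = -0.94), Akr1c21 (r = -0.92) and Serpina10 (r = -0.93). So the Akr1c cluster, like the Serpina cluster, held genes that ran in both directions over the same arrays.

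Akr1c18, the 20-alpha-hydroxysteroid dehydrogenase that inactivates progesterone, had a different pattern. It read 10.26, 9.89 and 10.02 on the TG arrays and 10.04 and 10.25 on WT 1 and WT 2. WT 3 stood above all of these, for a range of 1.12, and its r with Akr1c21 was -0.37. Akr1c13 read 8.20, 8.82 and 7.91 on the TG arrays and 8.44, 8.40 and 8.55 on the WT arrays (r = -0.20 with Akr1c21). The probe set 1450455_s_at, which the annotation gives to more than 1 gene of the cluster, read 8.58 to 9.56 (r = -0.19).

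Akr1c12, a reductase near Akr1c13, was the 1 gene of the 10 measured in the Akr1c list whose brighter probe set separated the groups, beside 10.5% of all probe sets. It read 7.84, 8.10 and 7.97 in TG against 8.16, 8.29 and 8.11 in WT kidneys, a difference of -0.22 ± 0.09 (SE) with a limma adjusted p of 0.84. Akr1c6, the 17-beta-hydroxysteroid dehydrogenase of liver, read 4.67 to 5.06, and Akr1c20 read 4.51 to 4.66 on 1425387_at and 4.26 to 4.71 on 1422061_at. Akr1e1, the 1,5-anhydrofructose reductase beside Akr1c21, read 10.76 to 10.88 on 1417826_at, a range of 0.12, and 7.81 to 8.07 on 1446483_at. On the latter TG lay above WT by 0.14 ± 0.07 (SE), with no overlap and a limma adjusted p of 0.90. Akr1cl, which lies outside the cluster on chromosome 1, read 6.90 to 7.12.

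Most genes next to the members in the order of the RefSeq table, many of them of the same clusters, had narrower ranges than the members. The nearest 5 protein-coding genes before Serpina10 (Ddx24, Ifi27l2a, Ifi27, Ifi27l2b and Ppp4r4) had ranges of 0.20 to 0.39. The 4 measured among the 5 after Serpina1c had ranges of 0.15 to 0.31. Among the genes between Serpina10 and Serpina1c, Serpina6 had a range of 0.53 and Serpina1b one of 1.21, as wide as that of Serpina1f. After Akr1c21, the 5 nearest (Akr1e1, Klf6, Pitrm1, Pfkp and Adarb2) had ranges of 0.12 to 0.71, the widest for Pfkp, a phosphofructokinase that read 9.79 on WT 3. Between Akr1c19 and Akr1c21 lay Akr1c12, Akr1c6 and Akr1c20, with ranges of 0.15 to 0.45 on their brighter probe sets. Before Akr1c19, the ranges were 0.25 for Ucn3, 0.62 for Akr1c14 and 0.92 for Akr1c13. Akr1c18, also before it, had a range of 1.12, as wide as that of Akr1c21 (1.11).

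**Figure D3:**
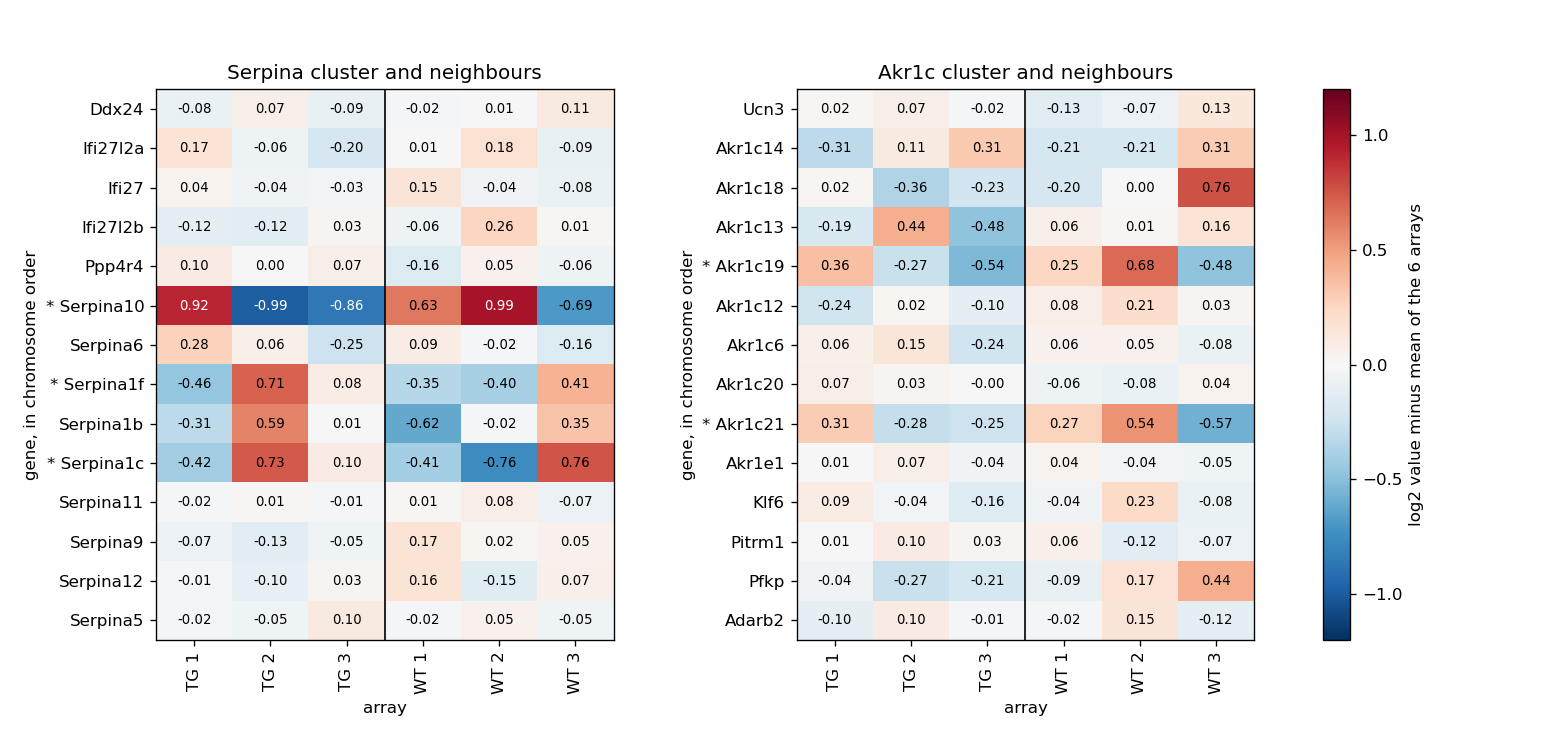
Deviation of each log2 value from the 6-array mean (colour and number) for measured genes in chromosome order (rows) on each array (columns), with TG left and WT right of the black line and members marked by an asterisk. Serpina10 and Serpina1f carry opposite colours on the same arrays, and so do Akr1c14 and Akr1c21.

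Genes from the rest of the table with the most similar values were looked up among 2306 probe sets that had 1 gene outside the member's own family, a range of at least 0.5 and a mean that reached the median of the whole table. Likeness was measured as Pearson r over the 6 arrays, and the 5 genes with the highest r were named for each member. For Serpina10 they were Sugct (0.99), Sec23ip (0.98), Gpx6 (0.98), Cuedc1 (0.97) and Xaf1 (0.97). At r of 0.9 or more there were 12 probe sets (0.520%), and at -0.9 or less there were 32 (1.39%). Genes of the other cluster were not left out of such counts, here and below. The 12 include the members Akr1c19 and Akr1c21, and the 32 include Akr1c14.

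Sugct, a CoA transferase of glutarate metabolism, read 8.37, 4.70 and 5.19 on TG 1, TG 2 and TG 3 and 8.56, 9.56 and 5.24 on WT 1, WT 2 and WT 3. Its range of 4.87 was far wider than that of Serpina10, with the same arrays high. Gpx6, a glutathione peroxidase, read 9.17, 6.71 and 6.91 on the TG arrays and 9.06, 10.15 and 7.04 on the WT arrays. Sec23ip, a protein of the secretory pathway, read 8.73, 7.91 and 7.85 and then 8.79, 8.86 and 7.84. All of them overlapped between the genotypes in the way of Serpina10.

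The same genes recurred for the Akr1c members. For Akr1c19 the nearest were Plekhb1 (0.99), Gpx6 (0.97), Sec23ip (0.96), Sugct (0.96) and Gdpd3 (0.95), and for Akr1c21 Osbpl10 (0.98), Sec23ip (0.96), Bid (0.96), Gpx6 (0.95) and Sugct (0.95). Plekhb1 read 9.87, 9.41 and 9.07 on the TG arrays and 9.67, 10.11 and 9.13 on the WT arrays. Osbpl10, of the oxysterol-binding protein family, read 8.36, 7.97 and 8.09 and then 8.41, 8.50 and 7.74. Sugct and Gpx6 lie on chromosome 13, as the Akr1c cluster does, though neither is among its nearest neighbours. Of the 16 probe sets with r of 0.9 or more with Akr1c19, 4 were on chromosome 13, and of the 17 with Akr1c21, 2 were, where 4.77% of the probe sets searched lie on that chromosome. For the 3 Serpina members 0 such probe sets were on chromosome 12.

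Serpina1f was most like Cox18 (0.98), an assembly factor of cytochrome c oxidase, Gfra1 (0.98), a receptor for glial cell line-derived neurotrophic factor, Gpd1l (0.97), Pm20d1 (0.95) and Uba6 (0.94), a ubiquitin-activating enzyme. Serpina1c was most like Slc1a2 (0.99), a glutamate transporter, Cox18 (0.96), Pde1a (0.95), Uba6 (0.95) and Gpd1l (0.95). Gfra1 read 6.18, 9.31 and 8.25 on TG 1, TG 2 and TG 3 and 6.13, 6.31 and 8.47 on WT 1, WT 2 and WT 3, a range of 3.18. Cox18 read 9.95 on TG 2, 9.44 on TG 3 and 9.92 on WT 3 within a range of 0.94. For both, TG 2, TG 3 and WT 3 were the highest arrays. At r of 0.9 or more there were 17 probe sets (0.737%) for Serpina1f and 15 (0.650%) for Serpina1c.

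**Figure D4:**
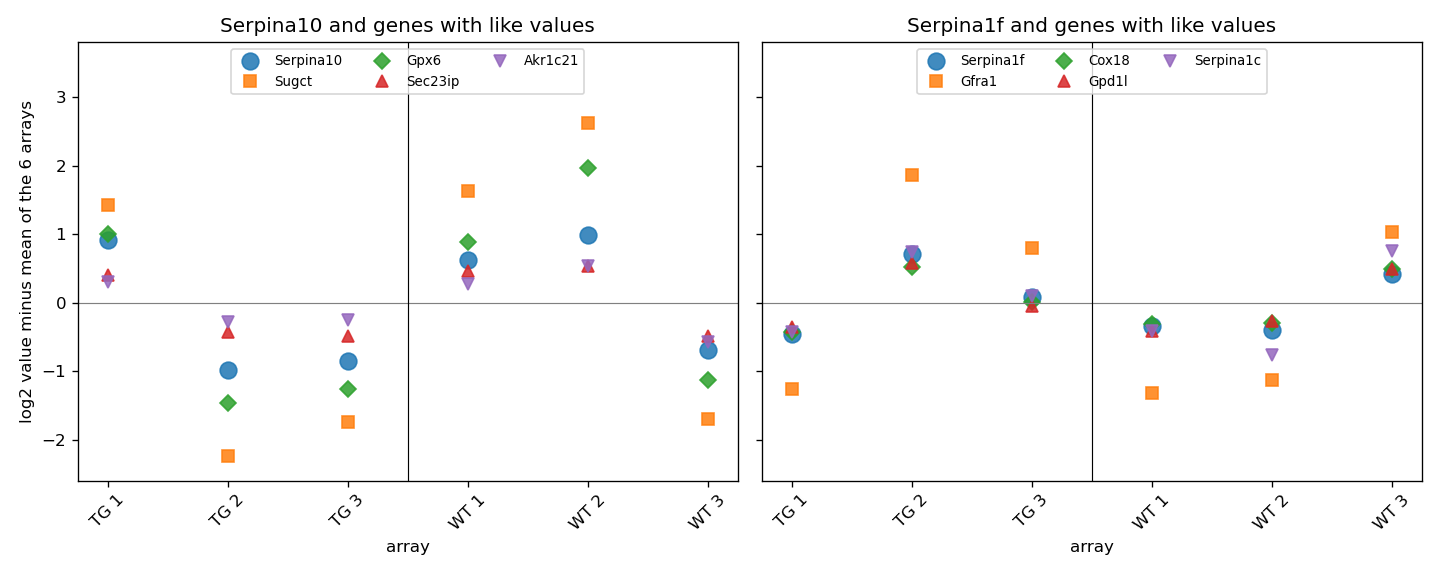
Deviation of each log2 value from the 6-array mean (vertical axis) on each array for Serpina10 with Sugct, Gpx6, Sec23ip and Akr1c21 (left) and for Serpina1f with Gfra1, Cox18, Gpd1l and Serpina1c (right), 1 point per gene and animal. TG 1, WT 1 and WT 2 lie above 0 on the left and below 0 on the right, and the widest range is that of Sugct (4.87).

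Related functional lists were counted in the same limma fit, and 0 genes passed in any of them. Of 19 other serpins 5 were higher and 14 lower in TG, with Serpinb6c (0.13) and Serpinb2 (0.080) highest and Serpinb9 (-0.21) and Serpinb6b (-0.20) lowest. Of 8 other aldo-keto reductases 6 were higher and 2 lower, from 0.053 for Kcnab2 and 0.040 for Kcnab1 to -0.007 for Akr7a5 and -0.045 for Akr1b8. Among 26 genes of steroid metabolism and steroid receptors 7 were higher and 19 lower (median -0.035), led by Hsd3b2 (0.13) and Esr1 (0.12) upward and Hsd17b14 (-0.27) and Hsd17b7 (-0.26) downward. The medians of the first pair of lists were -0.033 and 0.014.

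Of 19 proteases and cofactors that serpins act on, 11 were higher and 8 lower, with Plat (0.27) and Plg (0.14) at one end and St14 (-0.11) and F11 (-0.10), a target of Serpina10's product, at the other. Of 13 androgen-dependent kidney genes 5 were higher and 8 lower (median -0.016), among them Cyp4a12a (0.50), Cyp2j13 (0.097), Gusb (-0.21) and Slco1a1 (-0.053). Of 13 targets of the oxidant sensor NRF2, 3 were higher and 10 lower (median -0.073), with Osgin1 (0.31), Abcc4 (0.083), Gclc (-0.30) and Me1 (-0.19). The median of the protease list was 0.007. Without WT 2 the difference of Cyp4a12a was -0.26, so its direction rests on that array. Of the 24 genes named from the functional lists, 9 changed sign when some 1 array was left out (an alternative chosen after seeing the data), Slco1a1, Cyp2j13 and Hsd3b2 among them.

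The tissue label was checked with markers of kidney and other cells. Proximal tubule markers read high, with Lrp2 between 12.77 and 12.93 on 1452320_at and Fbp1 between 14.29 and 14.36. Another Lrp2 probe set, 1427133_s_at, read 12.25, 12.37 and 12.26 on the TG arrays and 13.01, 12.97 and 12.13 on the WT arrays. The dimmer 1445901_at of Lrp2 read 6.62 to 7.23. The groups overlapped on each of these Lrp2 probe sets. Whether they read the introduced sequence is not given in the labels, so their values do not check the genotype. The mean deviation of the 15 proximal tubule markers was -0.44 on WT 3, -0.070 on WT 2 and 0.11 to 0.16 on the others. WT 3 stood apart for only some of these markers. Slc34a3 read 6.46 on WT 3 and 8.68 to 9.35 on the other arrays, and Slc6a19 read 9.43 against 10.63 to 11.15. Aqp1 read 12.73 on WT 3, within 12.58 to 12.80 over all arrays, and Pck1 read 13.04, above its mean of 12.90. In bulk tissue, fewer cells of a type and less RNA per cell cannot be told apart.

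Because alpha-1 antitrypsin is made mainly in liver, hepatocyte markers were set beside the members. The score of the 17 markers was 0.032, 0.041 and -0.12 on TG 1, TG 2 and TG 3 and -0.008, 0.015 and 0.037 on WT 1, WT 2 and WT 3, a different order from that of the members, and 9 of the 17 were higher and 8 lower in TG. Alb read 7.07 to 7.49, with TG 1 and TG 2 highest. The mean score of 7 adrenal markers, singled out after its values were seen, was 0.015, -0.051 and -0.040 on the TG arrays and 0.037, 0.054 and -0.016 on the WT arrays. The 7 adrenal genes read between 4.88 and 7.08 on average, and 3 of them were higher and 4 lower in TG. The adrenal score had r of 0.94 with Serpina10, 0.89 with Akr1c19, 0.85 with Akr1c21, -0.85 with Serpina1f and -0.86 with Serpina1c. Single markers did not share 1 order. Cyp11a1 and Cyp11b2 were highest on WT 2, at 5.86 and 5.77, Hsd3b1 on WT 1, at 7.07, and Star on TG 1, at 7.18. Mc2r and Cyp11b1 were highest on TG 2, at 5.19 and 5.01, and Cyp21a1 on TG 3, at 7.17. No detection calls were available to say which of these are above background, and their part in the members' values was not tested.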

How the data were processed

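The authors deposited 1 value per probe set and array on a log2 scale. RMA is named in the submitters' processing notes, without a version, chip definition or filter. RMA forces arrays to 1 distribution and compresses differences of dim probe sets. Of 45101 rows, 64 were controls and were dropped. Array medians lay between 6.62 and 6.66, and correlations between arrays between 0.9949 and 0.9966. The platform annotation gave 1 symbol for 34945 of 45037 probe sets, several for 932 and none for 9160. RefSeq (GRCm38.p6) supplied gene order, chromosomes and promoters.

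The TG and WT groups were tested against each other in R 4.3.3 with limma 3.58.1 (eBayes, genotype only, 2-sided, Benjamini-Hochberg over 45037 probe sets, threshold 0.05), tested on simulated data. Intervals are 95%. Correlations used Python 3.11.15. Promoters were aligned with Biopython 1.88. A gene with several probe sets is given by the one with the highest mean. Named genes were the members, the other measured genes of both clusters, the 2 highest and 2 lowest differences of each functional list, the 5 most alike genes per member and neighbours. Marker lists are given as scores, a score being the mean, over the list's genes, of the deviation from the 6-array mean (log2). Of 15 marker lists, 3 are described: proximal tubule, hepatocyte and adrenal, the last picked after its values were seen. Members and lists were chosen with earlier results of these data known. Precision is limited by the 3 arrays per group.

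Replicate numbers are shared by both groups. Deviations of same-numbered arrays from their group means correlated at -0.006, 0.008 and -0.047, so the numbers were not taken as pairs.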

Additional observations from a re-analysis of the deposited data

How the results depend on the processing

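The number of probe sets past the limma threshold was 0 with array weights, after a further quantile normalization and among the 22519 brighter probe sets, 1 with a trended and robust prior, and 0 to 1 when 1 array was left out; 0 members passed in any of these fits. With the replicate number as a block the count was 0. This block cannot move a difference, since each number holds 1 TG and 1 WT array. Serpina10 thus stayed at -0.62, at a limma adjusted p of 0.906. Differences ranged, without 1 array, from -0.080 to 0.51 for Serpina1f, -0.039 to 0.72 for Serpina1c and -0.48 to 0.077 for Akr1c21, and kept their sign for Serpina10 (-1.23 to -0.28) and Akr1c19 (-0.62 to -0.037). The median of the Serpina list ranged from -0.059 to -0.012 without 1 array and was 0.19 among its brighter genes, which are fewer.

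Spearman's rho was 0.83 for Serpina10 with Akr1c19 and for Akr1c19 with Akr1c21. Without the 2 arrays farthest from the median, r was -0.93 for Serpina1f with Akr1c19 and -0.99 for Serpina1c with Akr1c19. Without 1 array these ranged from -0.90 to -0.74 and from -0.98 to -0.79. Of 110 alternative correlations 104 moved by no more than 0.1 or the spread of the leave-one-out values, and 0 changed sign. The 104 include, for each of the 10 pairs, 1 alternative that averaged the probe sets within each gene. That alternative could not move r, since no member has a second probe set, so it says nothing about stability. The other alternatives reuse the arrays on which the members were chosen, so they give the correlations no independent support. Each member rests on 1 probe set that names it alone. For Serpina1c, 1449321_x_at names the gene together with other copies, and its r with the member's own probe set was 0.93.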

Other observations

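Cyp4a12a, an androgen-dependent fatty acid hydroxylase of the kidney, read 12.52, 12.86 and 13.43 on TG 1, TG 2 and TG 3 and 13.22, 10.90 and 13.17 on WT 1, WT 2 and WT 3. WT 2 was the low array, and it was the highest array for Serpina10, Akr1c19 and Akr1c21. Opposite patterns were also found: 18 of the 2306 probe sets searched had r of -0.9 or less with Akr1c19, 16 had 0.9 or more, and 3 of the 18 lay on chromosome 13.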
